A study of Mus musculus with 24 samples.

Results

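Trem2, the 2 membrane adaptors it can pair with and 7 of its signalling and shedding partners were followed in mouse cortex. The members were Trem2, Tyrobp, Hcst, Syk, Lyn, Vav1, Plcg2, Inpp5d, Adam10 and Adam17. They were picked by gene name from the deposited count table, and all 10 were found among its 43346 genes, each in 1 row. Of these, 9 passed the filter on low counts and were tested together with 19678 genes in all. Hcst, with 163 counts over all libraries, did not pass and is given by its levels only.

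Cortex RNA was sequenced from 24 mice on the C57BL/6 background, 1 library per mouse and 6 per group, with 3 males and 3 females in each group per the series text. WT_control and WT_induced mice carried TREM2-WT+/+, and R47H_control and R47H_induced mice carried TREM2-R47H+/+. All 4 groups also carried Cx3cr1CreER/+, in which the promoter of Cx3cr1, a gene of microglia and other macrophages, drives a Cre that tamoxifen activates. Induced mice received tamoxifen and control mice the corn oil vehicle. The sources used here give no ages. Libraries held 27933505 to 56082520 counts, and 8 cortical neuron markers summed to between 3694 and 3948 CPM in the 24 libraries. Every mouse carried Cre, so an effect of tamoxifen itself and an effect of the induced construct cannot be told apart. The 2 lines are separate lines, and an effect of the allele and other differences between the lines cannot be told apart. No source used here states the species of the induced coding sequence, so the mouse Trem2 row may or may not hold its reads and does not check the labels.

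TREM2 is a lipid-sensing surface receptor of microglia, the brain's own macrophages, and its R47H variant is a risk factor for late-onset Alzheimer's disease. It has no signalling tail of its own and relies on the adaptor DAP12 (Tyrobp), whose phosphorylated motifs recruit the kinase SYK, or on DAP10 (Hcst), which recruits PI3-kinase. SYK then acts on phospholipase C gamma 2 (Plcg2) and on exchange factors of the Vav family, the phosphatase SHIP1 (Inpp5d) opposes the PI3-kinase branch, and ADAM10 and ADAM17 cut the receptor off the cell surface.

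The members lie on 8 chromosomes of the mm10 build. Trem2 is at chr17:48346401-48354147 on the plus strand. Its counted exons span 4946 bases, which include a retained-intron transcript, whereas the coding mRNA Trem2-201 has 1088 bases. Vav1 is on the same chromosome at chr17:57279100-57328031. Tyrobp (chr7:30413788-30417577) and Hcst (chr7:30417717-30419854) lie tail to tail on opposite strands with 139 bases between them. The library kit does not mark strand, so reads of overlapping genes cannot be told apart: 4.3% of the Adam17 exon bases are overlapped by Iah1 and 6.1% of those of Lyn by Gm26857.

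Promoter sequence was available for 8 of the 10 members in RefSeq on GRCm38.p6, as 250 bases before to 50 bases after the start. It is shown for Trem2 and for the 3 members that hold AGGAAGT, letters resembling the binding motif of PU.1, the ETS factor that drives macrophage genes. Letters searched were AGGAAGT and GAGGAA on both strands, and these can overlap. AGGAAGT was present in 3 members (Hcst, Inpp5d and Vav1) and in 9.35% of 32851 promoters of this length. GAGGAA was present in 5 members and in 28.3% of all promoters. Capitals mark these letters on either strand, and each sequence runs 5′ to 3′ on the strand of its gene. Positions are chr17:48346151-48346450 (plus) for Trem2, chr7:30419805-30420104 (minus) for Hcst, chr1:87620062-87620361 (plus) for Inpp5d and chr17:57278850-57279149 (plus) for Vav1.
Trem2: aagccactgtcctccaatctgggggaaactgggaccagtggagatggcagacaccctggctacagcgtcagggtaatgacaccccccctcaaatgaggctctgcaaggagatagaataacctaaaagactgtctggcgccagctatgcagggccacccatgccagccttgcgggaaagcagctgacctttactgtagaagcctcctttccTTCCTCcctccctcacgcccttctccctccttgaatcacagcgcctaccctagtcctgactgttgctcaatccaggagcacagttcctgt
Hcst: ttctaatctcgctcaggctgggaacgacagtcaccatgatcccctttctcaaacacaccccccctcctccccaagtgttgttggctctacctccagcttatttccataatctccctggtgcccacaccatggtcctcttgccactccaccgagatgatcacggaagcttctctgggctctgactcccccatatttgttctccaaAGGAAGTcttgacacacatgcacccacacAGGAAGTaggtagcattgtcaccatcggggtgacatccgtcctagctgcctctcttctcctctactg
Inpp5d: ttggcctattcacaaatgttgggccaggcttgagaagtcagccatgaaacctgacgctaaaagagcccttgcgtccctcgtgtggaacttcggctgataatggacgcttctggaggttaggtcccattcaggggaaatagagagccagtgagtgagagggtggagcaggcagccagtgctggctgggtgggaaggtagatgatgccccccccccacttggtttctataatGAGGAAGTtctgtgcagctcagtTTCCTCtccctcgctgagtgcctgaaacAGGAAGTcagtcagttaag
Vav1: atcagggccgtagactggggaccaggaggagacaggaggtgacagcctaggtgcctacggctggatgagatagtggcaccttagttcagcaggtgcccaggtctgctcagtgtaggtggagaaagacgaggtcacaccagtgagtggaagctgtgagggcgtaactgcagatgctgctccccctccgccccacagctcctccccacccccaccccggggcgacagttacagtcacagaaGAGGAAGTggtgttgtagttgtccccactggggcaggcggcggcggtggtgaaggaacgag

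Levels were compared between genes as TMM-scaled read counts (CPM) per kilobase of the first coding mRNA, over all 24 libraries. Adam10 was highest at 19.3 ± 0.90 (SD, n = 24), followed by Tyrobp at 10.5 ± 2.49, Trem2 at 6.32 ± 0.97 and Adam17 at 3.68 ± 0.26. Inpp5d followed at 2.47 ± 0.30, Lyn at 2.06 ± 0.29 and Vav1 at 1.07 ± 0.22. Syk at 0.79 ± 0.15 and Plcg2 at 0.78 ± 0.16 could not be ordered, and Hcst was lowest at 0.39 ± 0.20. The order of Trem2 and of Syk depends on the length used. Per kilobase of all counted exons the level of Trem2 was 1.39 ± 0.21, under Adam17 (2.29 ± 0.16), Lyn (1.75 ± 0.25) and Inpp5d (1.58 ± 0.19). On that length Syk was at 0.43 ± 0.08, under Plcg2 at 0.78 ± 0.16, and could not be ordered against Hcst at 0.40 ± 0.20. ADAM10 and ADAM17 are made by many brain cell types, and the remaining members mainly by microglia and other blood-lineage cells.

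**Figure D1:**
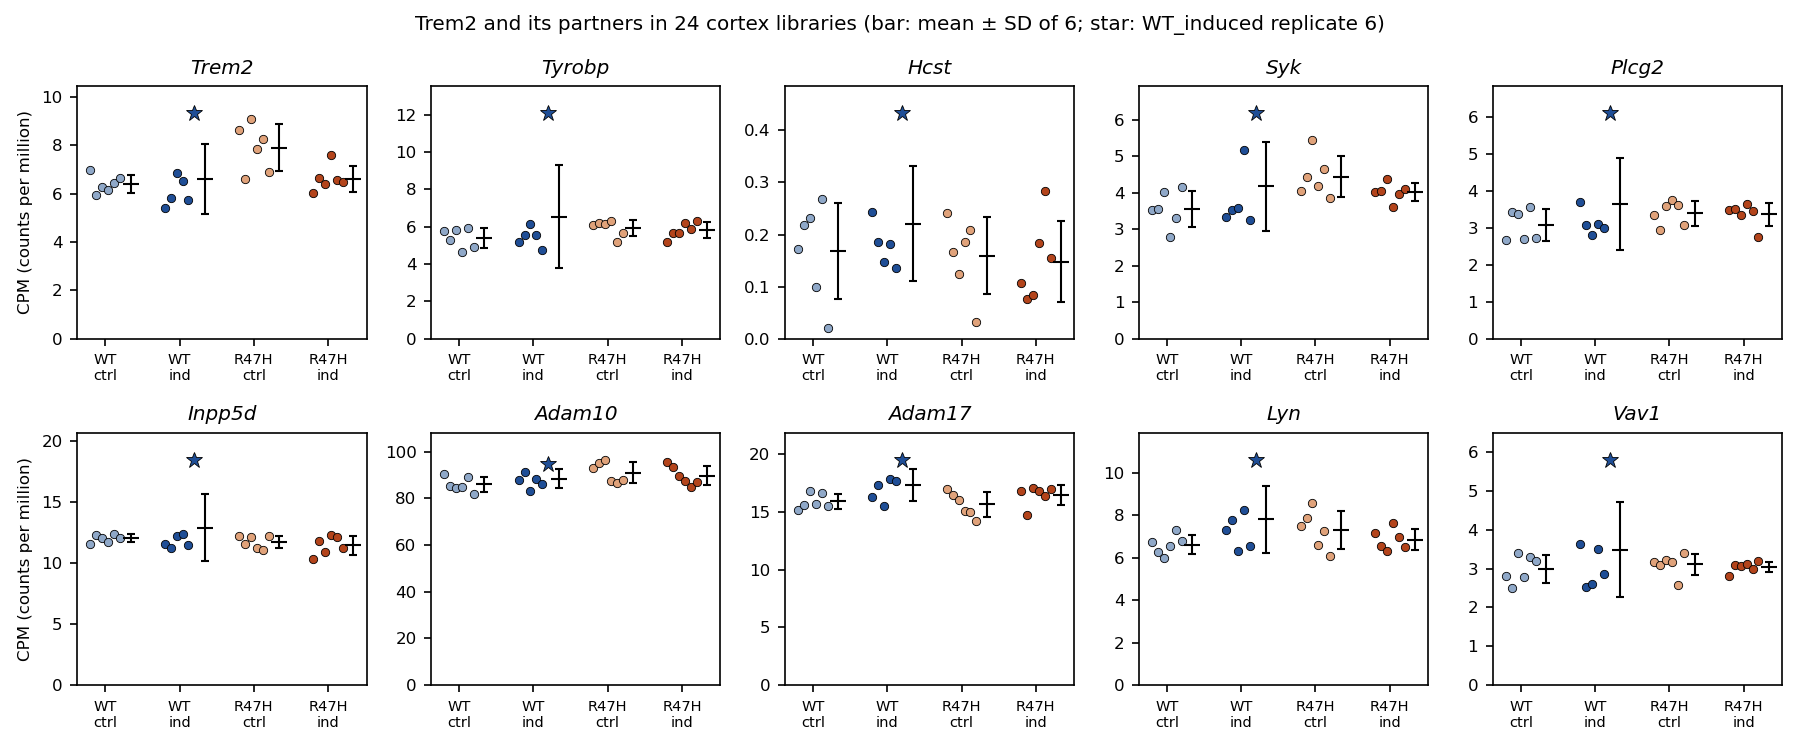
Level of each member in every library (y axis, CPM from 0 upwards; x axis, the 4 groups of 6). Black bars give mean ± SD, and the star marks WT_induced replicate 6, which was highest of the 24 libraries for every member except Adam10.

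The receptor, Trem2, had its highest group mean in R47H_control, 7.89 ± 0.97 CPM (SD, n = 6), against 6.40 ± 0.37 CPM in WT_control, 6.61 ± 1.43 CPM in WT_induced and 6.61 ± 0.53 CPM in R47H_induced. WT_control libraries ran from 5.93 CPM through a median of 6.35 to 6.95 CPM. WT_induced libraries ran from 5.40 through 6.17 to 9.32 CPM, with the second highest at 6.85. R47H_control libraries ran from 6.61 through 8.07 to 9.08 CPM. R47H_induced libraries ran from 6.01 through 6.52 to 7.61 CPM. All 4 ranges overlapped.

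In R47H_control against WT_control, all 6 R47H_control libraries lay above the WT_control median. The fitted log2 difference was 0.30 (SE 0.10), a fold of 1.23, with an edgeR adjusted p of 0.0726, above the threshold of 0.05. Alone, Trem2 gave a two-sided exact permutation p of 0.0108 on log2(CPM + 1), unadjusted and 1 of 40 such tests run on the members. No library of R47H_induced lay above the R47H_control median, and the log2 difference of induced against control in R47H mice was -0.25 (SE 0.10), where the edgeR adjusted p was 0.945 and the unadjusted exact permutation p 0.0195. In WT mice the corresponding difference was 0.05 (SE 0.10), with a 95% interval of -0.16 to 0.26. R47H_induced and WT_induced differed by 0.00 (SE 0.10, 95% interval -0.20 to 0.21). The difference of the 2 inductions, R47H minus WT, was -0.30 (SE 0.14), with an edgeR adjusted p of 0.623. Without WT_induced replicate 6 it was -0.17 (SE 0.11).

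Among the adaptors, Tyrobp averaged 5.39 ± 0.53 CPM (SD, n = 6) in WT_control and 6.53 ± 2.76 CPM in WT_induced, and 5.92 ± 0.42 and 5.81 ± 0.42 CPM in R47H_control and R47H_induced. WT_induced libraries ran from 4.72 through 5.55 to 12.1 CPM, and the next highest of them was at 6.11. WT_control ran from 4.63 through 5.51 to 5.94, R47H_control from 5.18 through 6.11 to 6.29 and R47H_induced from 5.16 through 5.77 to 6.33 CPM. Apart from the library at 12.1 CPM, all libraries lay between 4.63 and 6.33 CPM and the groups overlapped. The fitted log2 difference of induced against control was 0.28 (SE 0.16) in WT and -0.02 (SE 0.16) in R47H mice, and neither passed.

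Hcst was near the lower limit of detection. Its counts ran from 1 to 19 per library, and WT_control summed to 39 counts, WT_induced to 53, R47H_control to 33 and R47H_induced to 38. Group means were 0.168 ± 0.093, 0.221 ± 0.11, 0.160 ± 0.074 and 0.148 ± 0.078 CPM in the same order. The 4 groups overlapped, and differences smaller than this spread were not detectable at this depth.

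Both kinases overlapped between all groups. Lyn, the Src-family kinase that phosphorylates such adaptor motifs, had 5.98 through 6.66 to 7.29 CPM in WT_control and 6.33 through 7.52 to 10.6 CPM in WT_induced, with overlapping ranges. R47H_control ran from 6.08 through 7.38 to 8.56 CPM and R47H_induced from 6.31 through 6.75 to 7.62 CPM. The log2 difference of Lyn was 0.24 (SE 0.10) in WT mice, -0.10 (SE 0.10) in R47H mice and -0.34 (SE 0.14) between the inductions. The edgeR adjusted p-values were 0.548, 1 and 0.601.

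Syk, the kinase docked on the adaptor, had 2.80 through 3.54 to 4.16 CPM in WT_control and 3.86 through 4.31 to 5.45 CPM in R47H_control. All 6 R47H_control libraries lay above the WT_control median, and the ranges overlapped. WT_induced libraries ran from 3.25 through 3.55 to 6.17 and R47H_induced from 3.61 through 4.03 to 4.38 CPM. The difference of the control lines was 0.32 (SE 0.13), where the edgeR adjusted p was 0.155 and the unadjusted exact permutation p 0.013, which rose to 0.0758 when CPM were set on library totals. Vav1, a guanine nucleotide exchange factor, stayed between 2.501 and 3.643 CPM in 23 libraries and reached 5.81 in WT_induced replicate 6. Its fitted differences in the 5 comparisons ran from -0.25 to 0.22 and none passed.

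Plcg2, the phospholipase that makes the calcium-releasing second messenger, had 3.08 ± 0.42, 3.64 ± 1.25, 3.39 ± 0.33 and 3.37 ± 0.32 CPM in WT_control, WT_induced, R47H_control and R47H_induced. It ran from 2.68 to 3.76 CPM in 23 libraries, with WT_induced replicate 6 at 6.11. Inpp5d, which removes a phosphate from the lipid product of PI3-kinase, had 12.04 ± 0.32, 12.9 ± 2.77, 11.8 ± 0.51 and 11.5 ± 0.77 CPM in that order. Outside WT_induced replicate 6, at 18.5 CPM, it stayed between 10.4 and 12.4 CPM. R47H_induced against WT_induced gave -0.17 (SE 0.08) for Inpp5d, with an unadjusted p of 0.0487 and an edgeR adjusted p of 0.245.

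Over the 24 libraries the sheddases had coefficients of variation of 4.66% for Adam10 and 7.16% for Adam17, against 12.3% to 50.9% for the other members. That order rests in part on WT_induced replicate 6: in WT_control Inpp5d varied by 2.68%, against 3.66% for Adam10 and 4.12% for Adam17. In R47H_induced Vav1 varied by 4.42%, against 4.55% for Adam10 and 5.34% for Adam17. Counts per library also differed, at 2688 to 4778 for Adam10, 442 to 918 for Adam17, 79 to 255 for Vav1 and 1 to 19 for Hcst. The part of counting noise in this order was not tested. Adam10 ran from 82.0 to 96.5 CPM over all libraries. Its group means were 86.0 ± 3.15, 88.5 ± 3.99, 91.0 ± 4.43 and 89.6 ± 4.08 CPM, and its largest fitted difference among the 5 comparisons was 0.08 (SE 0.04) in R47H_control against WT_control, with an edgeR adjusted p of 0.184. Adam17 ran from 15.2 through 15.7 to 16.9 CPM in WT_control and from 15.5 through 17.5 to 19.6 CPM in WT_induced, with 5 of 6 induced libraries above the control median. Its log2 difference was 0.13 (SE 0.05), with an edgeR adjusted p of 0.564. In R47H mice, with 14.2 through 15.6 to 17.0 CPM in R47H_control and 14.8 through 16.8 to 17.1 CPM in R47H_induced, it was 0.07 (SE 0.05).

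**Figure D2:**
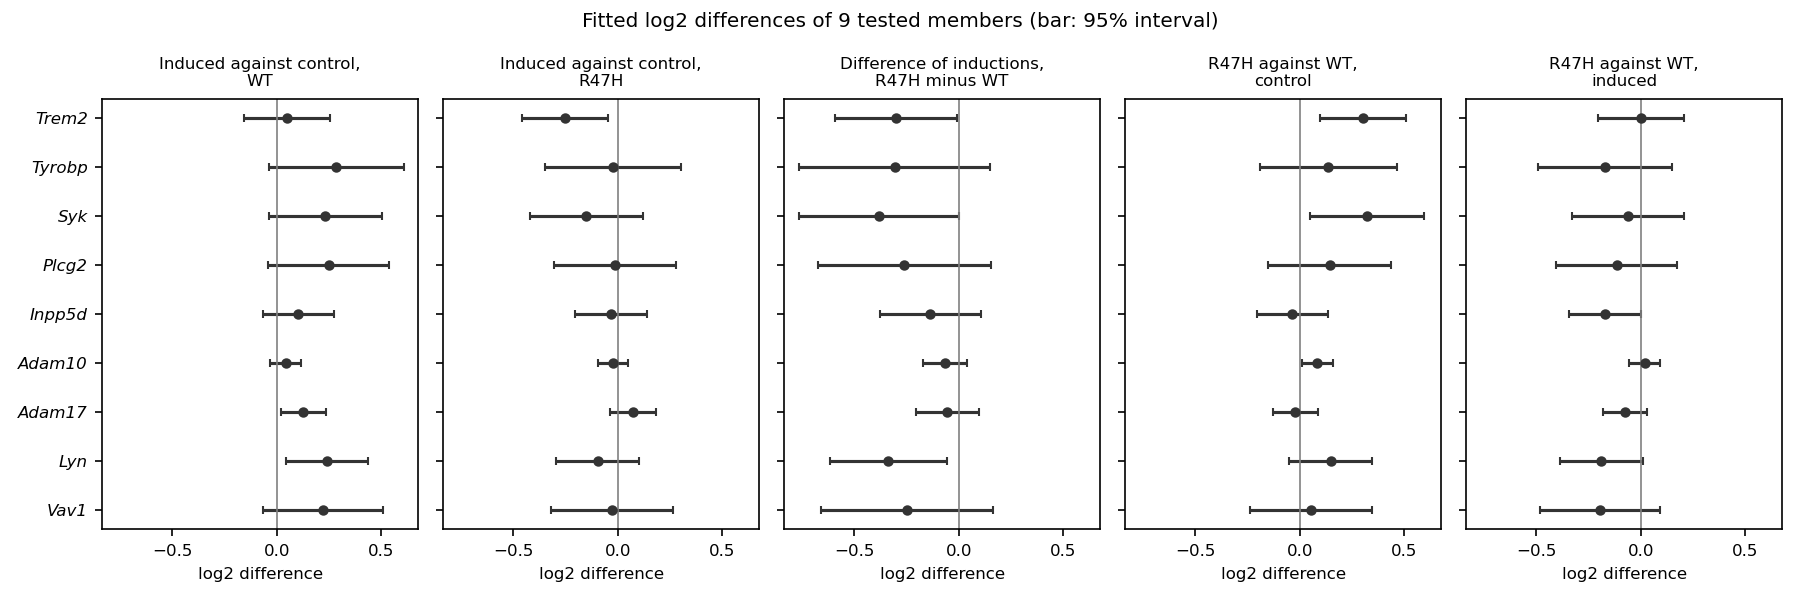
Fitted log2 differences (x axis) of the 9 tested members in 5 comparisons, with 95% intervals. In WT mice all 9 points lie above 0, in the difference of the inductions all 9 lie below 0 (Adam10 and Adam17 lay above 0 on library totals), and no member passed the adjusted threshold.

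Across the 10 members, no member passed in any comparison at an edgeR adjusted p below 0.05, and the same count of 0 was obtained with DESeq2 and with limma-voom. Trem2 passed in the control lines and in the average of the lines with sample weights in limma-voom. In induced against control, 0% of all tested genes passed in WT mice, 0% in R47H mice and 0% in the difference of the inductions. In the line comparisons 5.74% of all tested genes passed in control and 5.8% in induced mice. At an unadjusted p below 0.05 the members numbered 2 of 9 in WT induction (Adam17 and Lyn; 7.85% of all genes), 1 in R47H induction (Trem2; 5.11%) and 3 in their difference (Trem2, Syk and Lyn; 7.94%). They numbered 3 in R47H_control against WT_control (Trem2, Syk and Adam10; 20.5%) and 1 in R47H_induced against WT_induced (Inpp5d; 20.1%). In WT induction all 9 differences were positive (50.9% of all genes), with a median of 0.22 against 0.00 for all genes. In R47H induction 1 of 9 was positive (52.7% of all genes), with a median of -0.03, where Tyrobp, Plcg2, Inpp5d, Adam10 and Vav1 turned positive on library totals. In the difference of the inductions 0 of 9 were positive (51% of all genes), with a median of -0.26, where Adam10 and Adam17 turned positive on library totals. In R47H_control against WT_control 7 of 9 were positive (49.5% of all genes), with Vav1 turning negative on library totals, and in R47H_induced against WT_induced 2 of 9 (50.5%), with Trem2 turning negative on RLE size factors. Averaged over both treatments, R47H minus WT gave 0.15 (SE 0.07) for Trem2, and again 0 of 9 members passed, where 13.8% of all genes did. The comparisons share libraries, so these counts do not stand apart from each other. No member had non-overlapping groups in any of the 4 pairs compared, where 0.234% of all genes did in WT induction, 0.34% in R47H induction, 3.18% in the control lines and 3.25% in the induced lines.

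One library stood apart. WT_induced replicate 6 was highest of the 24 libraries for 9 members and 4th for Adam10. Set against the mean of the other 5 libraries of its group, it was 2.42-fold higher for Hcst, 2.23 for Tyrobp, 1.94 for Plcg2, 1.92 for Vav1, 1.64 for Syk, 1.57 for Inpp5d, 1.54 for Trem2, 1.47 for Lyn, 1.15 for Adam17 and 1.08 for Adam10. In the same library the summed CPM of 18 microglia markers was 685, against 390 to 450 in the other 5, and the summed CPM of 16 interferon and antigen presentation genes was 1062, against 117 to 245. Of those 5, replicates 1 and 4 were at 241 and 245 CPM for the interferon and antigen presentation sum, against at most 156 in WT_control. Y-linked counts lay under those of the female-expressed Xist in replicates 1, 4 and 6, and above them in replicates 2, 3 and 5. The part of sex in these sums was not tested. In WT_induced replicate 6 the lymphocyte list summed to 29.1 CPM, against 14.5 to 16.2 in the other 5. The blood monocyte and neutrophil list summed to 85.1 CPM, against 49.5 to 72.6 in the other 5. Of its genes, Fn1 held most of the sum, at 68.8 CPM in WT_induced replicate 6 against a mean of 55.3 in WT_control. In the same order Ccr2 was at 8.64 CPM against 0.32, and Ly6c2 at 2.62 against 0.036. S100a8 was at 0.046 against 0.104 and S100a9 at 0.068 against 0.227, while Ly6g and Retnlg were at 0 in that library. Cd3d, Gzma and Klrb1c were at 0 in 17, 15 and 18 of the 24 libraries, and the border macrophage sum was lowest there, at 18.6. The part of these cell types in the members' levels was not tested. Without this library the median of the 9 differences in WT induction was 0.02, with 7 of 9 positive, and that of the difference of inductions was -0.04, with 0 of 9 positive. Trem2 then gave -0.08 (SE 0.08) in WT induction. In R47H_control against WT_control, a pair that does not contain the library, leaving it out of the shared fit lowered the SE of Trem2 to 0.08 and its edgeR adjusted p to 0.017.

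**Figure D3:**
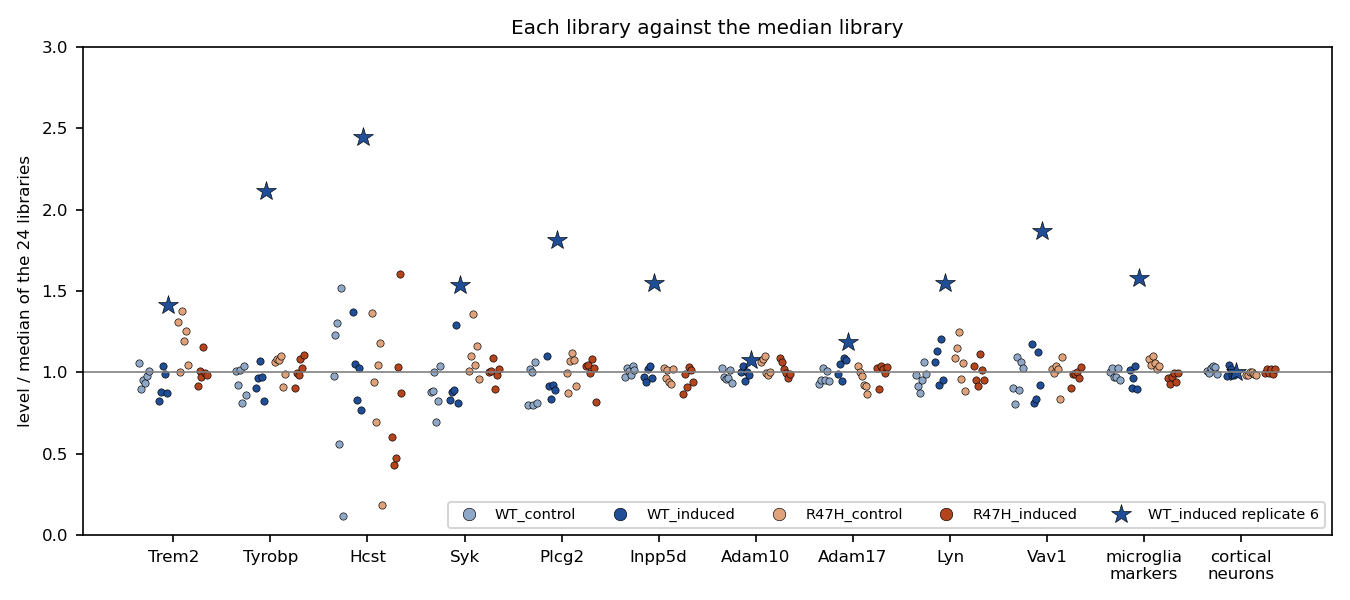
Each library's level divided by the median of the 24 libraries (y axis) for the 10 members, 18 summed microglia markers and 8 summed cortical neuron markers. WT_induced replicate 6 (star) lies above all other libraries for 9 members and the microglia markers, and near 1 for the neuron markers.

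Microglial content was compared as the summed CPM of the 18 microglia markers, since bulk cortex cannot tell fewer microglia from less RNA per microglia. In control mice the sum was 429 ± 13.6 CPM for WT and 457 ± 12.7 CPM for R47H, a difference of 27.9 CPM (exact permutation p = 0.00649). In induced mice it was 461.8 ± 112 CPM for WT and 418 ± 12.1 CPM for R47H. Among R47H mice the induced sum differed from the control sum by -39.3 CPM (exact permutation p = 0.00216, the smallest the design allows). The percentage of reads on 3 rRNA-like genes moved the same way, by +4.43 percentage points (exact permutation p = 0.0303) and by -3.29 (p = 0.0281). The lymphocyte sum was lower in R47H_control than in WT_control by 2.93 CPM (exact permutation p = 0.00866). Most of this lay in Cd4, at means of 9.09 CPM in R47H_control and 11.13 in WT_control, and Trbc2, at 4.0 and 4.715. In the same order Cd3e averaged 0.066 and 0.0084, Cd3g 0.025 and 0.012 and Cd3d 0.010 and 0.012 CPM. Whether lymphocyte numbers differed was not tested. The cortical neuron sum differed between R47H_control and WT_control by -85.2 CPM (exact permutation p = 0.0444). The border macrophage sum differed between R47H_induced and R47H_control by -4.07 CPM (exact permutation p = 0.00866). Most of that fall lay in Stab1, at means of 10.7 CPM in R47H_induced and 13.4 in R47H_control. In the same order Mrc1 averaged 5.71 and 5.81 CPM, and Cbr2 0.687 and 0.65. In R47H_induced against WT_induced the lymphocyte sum differed by -4.34 CPM (exact permutation p = 0.00433). The interferon and antigen presentation sum differed there by -204 CPM (exact permutation p = 0.0173), or by -57.2 without WT_induced replicate 6 (p = 0.0173). All p-values of these sums are unadjusted, and each sum was tested in 4 pairs of groups. The part of these measures in the differences of Trem2 was not tested apart from the values that follow. Per unit of microglia markers, Trem2 in R47H_control exceeded WT_control by 0.20 on the log2 scale (SDs 0.16 and 0.10; exact permutation p = 0.0325, unadjusted). For R47H_induced against R47H_control the ratio gave -0.12 (exact permutation p = 0.156). With the share of rRNA-like genes as a covariate the line difference of Trem2 was 0.25 (SE 0.12). Its edgeR adjusted p was then 0.334 (unadjusted 0.0468). With the mean of the microglia markers as a covariate it was 0.22 (SE 0.07), with an edgeR adjusted p of 0.0748. The difference of the inductions of Trem2, R47H minus WT, was -0.10 (SE 0.11) with that covariate.

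**Figure D4:**
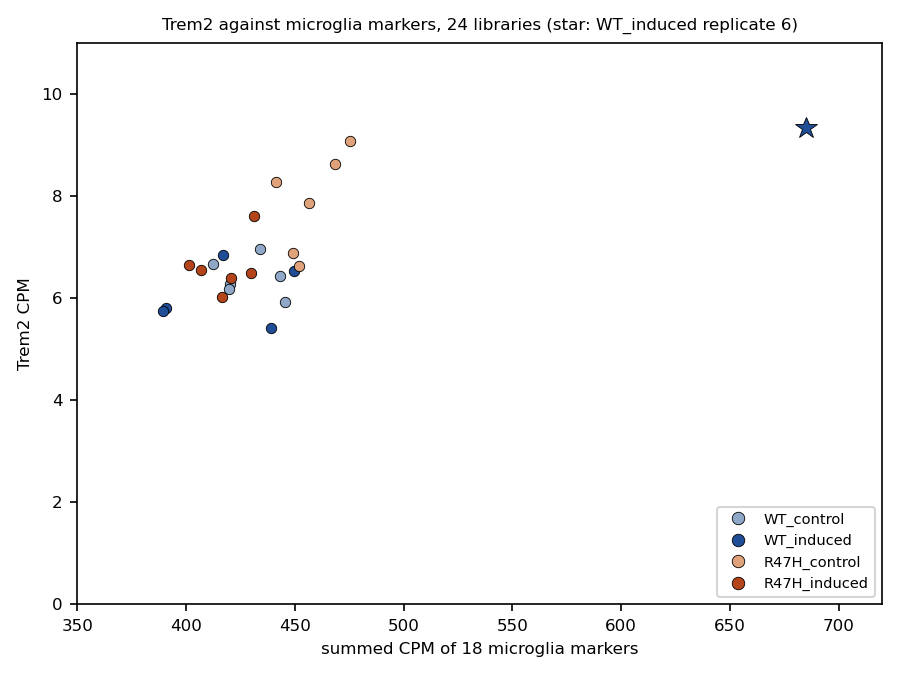
Trem2 CPM (y axis) against the summed CPM of 18 microglia markers (x axis) in the 24 libraries, coloured by group. WT_induced replicate 6 (star) stands at 685 and 9.32 CPM, and R47H_control libraries lie between 441 and 475 on the x axis.

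Other members were set against the same markers. Inpp5d per unit of microglia markers was lower in R47H_control than in WT_control by 0.13 on the log2 scale (exact permutation p = 0.00433). The marker sum, its denominator, was itself higher in R47H_control, as given above, and Inpp5d alone differed by -0.04 (SE 0.08). With the 18 markers, 6.25% of all tested genes had non-overlapping groups in this ratio, 5.93% downwards. Inpp5d was not among these genes, as its WT_control and R47H_control groups overlapped in the ratio. Adam17 per unit of microglia markers was higher by 0.20 in R47H_induced than in R47H_control with no overlap (exact permutation p = 0.00216), in a comparison where 8.66% of all genes did not overlap, 8.65% in this direction. Its denominator, the marker sum, was itself lower in R47H_induced, as given above. Syk gave 0.23 in the control lines (exact permutation p = 0.0693). These are unadjusted tests, 40 in all for this ratio.

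Members were also compared library by library after each group's mean was taken off. Over 24 libraries Trem2 correlated best with Inpp5d (Pearson r = 0.76, Spearman coefficient 0.49) and Tyrobp (r = 0.74, Spearman coefficient 0.50), each with a permutation p for r adjusted over 9 relations of 0.037. The relations with Lyn and Syk had r = 0.64 and 0.62 with an adjusted permutation p of 0.0446, while no Spearman relation passed (lowest adjusted p = 0.0981). Without the 2 libraries farthest from the median of Trem2, WT_induced replicate 6 and R47H_control replicate 3, r was 0.35 for Tyrobp and 0.38 for Inpp5d and no relation passed, so the relations rest on those libraries. Over all 45 pairs of members the median r was 0.58 with all libraries and 0.15 without WT_induced replicate 6. The genes whose group-centred pattern was most like Trem2 over 24 libraries were C1qc (r = 0.81), Rab32, Ikzf3, Il10ra, Gpr84, Hk2, Aif1 and Unc13d (0.78). Those most like Tyrobp were Ctss (r = 0.93), Itgb2, Epsti1, Ncf4, Cybb, AF251705, Ikzf3 and Cd52. Without WT_induced replicate 6, Ncf4 alone remained among the 8 genes nearest Tyrobp, and none among those nearest Trem2.

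The 118 other genes of the pathway, in 10 lists, gave 95 tested genes, and none of these passed in either induction or in their difference. In R47H_control against WT_control, 4 passed upwards and 4 downwards (8.42%, against 5.74% of all genes). The ligands gave 1 of 7, Apoe, the apolipoprotein that TREM2 binds, at 812 ± 74.5 CPM in WT_control and 970 ± 63.9 in R47H_control. Its ranges of 715 to 932 and 892 to 1071 CPM overlapped, and it rose by 0.26 (SE 0.06), with an edgeR adjusted p of 0.0126. In induced mice the difference of Apoe was 0.08 (SE 0.06) and did not pass. Of the TREM family, Treml2, a TREM-like receptor gene next to Trem2, was the only gene of 5 that passed the filter. It had 33 counts over the 6 WT_control libraries and 90 over the 6 R47H_control libraries (86 in WT_induced and 115 in R47H_induced). In WT_induced, replicate 6 was at 1.116 CPM against a group median of 0.193 CPM. In the control lines Treml2 rose by 1.65 (SE 0.49, edgeR adjusted p = 0.0463). Pik3r1, a regulatory subunit of PI3-kinase, rose by 0.13 (SE 0.03, edgeR adjusted p = 0.00844), and its WT_control and R47H_control groups did not overlap. Tspan15, a tetraspanin that escorts ADAM10, rose by 0.23 (SE 0.06, edgeR adjusted p = 0.0266). Prkcb, a protein kinase C, fell by 0.16 (SE 0.03), with no overlap between groups, at 538 ± 18.3 CPM in WT_control and 483 ± 5.84 CPM in R47H_control. Plcg1, the relative of Plcg2, fell by 0.14 (SE 0.03), Ncstn, a subunit of gamma-secretase, fell by 0.20 (SE 0.04), and Dok3, an inhibitory adaptor, fell by 0.53 (SE 0.14). Ncstn lies on chromosome 1 at 172066013, where 28.1% of the 114 tested genes within 5 Mb passed in the same comparison, against 5.74% overall.

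After induction, R47H against WT passed for 2 genes upwards and 7 downwards (9.47%, against 5.8% of all genes). Pik3r1 (0.12, SE 0.03) and Tspan17 (0.17, SE 0.05) rose. Ptpn11 (-0.16, SE 0.03), Ncstn (-0.16, SE 0.04), Prkcb (-0.12, SE 0.03) and Rptor (-0.12, SE 0.04) fell, as did Pik3ap1 (-0.66, SE 0.18), Cd33 (-0.51, SE 0.15) and Lair1 (-0.32, SE 0.10). Ptpn11 encodes a phosphatase, and Cd33 and Lair1 are inhibitory receptors. Without WT_induced replicate 6, Cd33 (-0.27, adjusted p = 0.105), Lair1 (-0.18, 0.132), Pik3ap1 (-0.33, 0.0676) and Tspan17 (0.15, 0.088) no longer passed in edgeR, while Pik3r1, Ptpn11, Ncstn, Prkcb and Rptor did. Treml2 (1.25, SE 0.33, adjusted p = 0.0237) and Cblb then also passed.

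By list, in R47H_control against WT_control, calls up and down were 0 and 0 of 9 for the other Src, Syk and Tec family kinases (median difference 0.10), 0 and 0 of 13 for adaptors and exchange factors (0.03), 0 and 2 of 11 for the phospholipase C branch (-0.02), 1 and 0 of 17 for the PI3-kinase branch (0.00), 0 and 1 of 14 for phosphatases and inhibitory receptors (0.02), 1 and 1 of 17 for shedding and cleavage (-0.05), 0 and 0 of 2 for other receptors that pair with DAP12 or DAP10 (-0.03) and 0 and 0 of 4 for the MS4A family (0.10). All genes had a median of 0.00. In WT induction the medians of the MS4A family (0.97, 4 of 4 positive), the ligands (0.55, 6 of 7) and the other kinases (0.20, 9 of 9) were above 0, with 0 genes passing. Without WT_induced replicate 6 they were 0.14 for the MS4A family (3 of 4), 0.27 for the ligands (6 of 7) and 0.03 for the other kinases (5 of 9).

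The neighbourhood of Trem2 was then examined, since the line comparison also covers the DNA around the gene. Of the 3 nearest tested genes on each side, Foxp4 rose by 0.20 (SE 0.06, edgeR adjusted p = 0.0299) in R47H_control against WT_control and by 0.19 (SE 0.06, adjusted p = 0.0423) in the induced lines, with Treml2 as above. Nfya gave 0.19 (SE 0.07, adjusted p = 0.0951) and 0.20 (SE 0.07, adjusted p = 0.0699), and Oard1 gave 0.01 in both. Mdfi gave 0.56 (SE 0.35) and 0.66 (SE 0.34) and Apobec2 0.41 (SE 0.30) and 0.99 (SE 0.33), and none of these passed. Within 1 Mb of Trem2, 4 of 26 tested genes passed in each line comparison. Guca1b, named here after its values were seen, had 0 counts in the 6 WT_control libraries, 1 in WT_induced, 50 in R47H_control and 73 in R47H_induced. Lrfn2 fell by 0.19 in control and by 0.29 in induced lines. Within 5 Mb, 20 of 113 tested genes (17.7%) passed in control lines and 24 (21.2%) in induced lines, against 5.74% and 5.8% of all genes. No gene there passed in either induction. Raised shares were not confined to this window. Within 5 Mb of Vav1, 10 of 76 tested genes (13.2%) passed in each line comparison. Within 5 Mb of Ncstn, on chromosome 1, the shares were 28.1% in control and 23.7% in induced lines. Around Apoe, on chromosome 7, they were 5.13% and 5.98%. Whether the Trem2 difference of the control lines comes from the surrounding DNA was not tested.

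**Figure D5:**
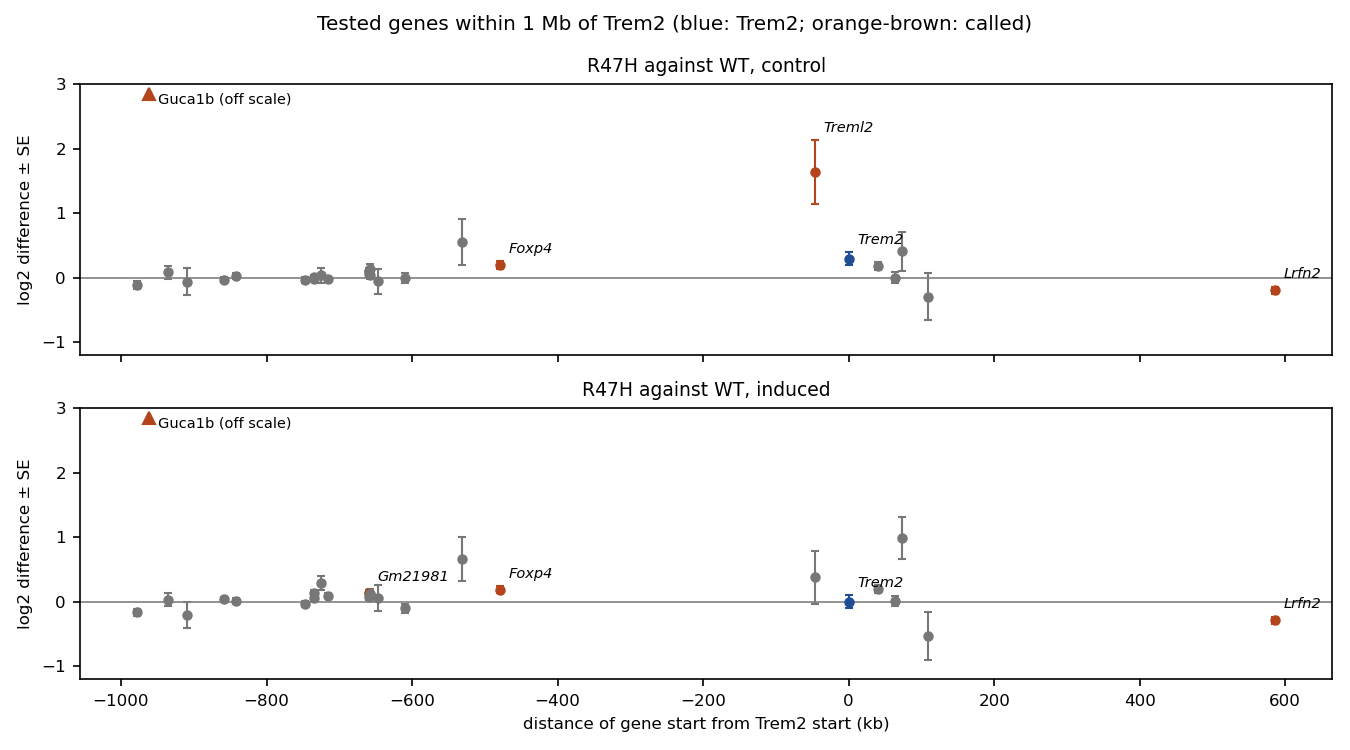
Log2 difference with SE (y axis) of each tested gene against the distance of its start from the Trem2 start in kilobases (x axis), for the control and induced lines. Guca1b exceeds the scale and is drawn near its upper edge, and genes passing the adjusted threshold are orange-brown, with Trem2 in blue.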

How the data were processed

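Cortex poly-A RNA of 24 mice was sequenced, 1 library per mouse. Trizol extraction, RNeasy clean-up with DNase and a TruSeq v2 library followed, per the labels' protocols. The deposited table holds whole-number counts of reads per gene with no normalization, made by the authors, with STAR 2.5.2b, featureCounts 1.5.1 and build mm10, per the submitters' processing notes. No source used here gives the counting options or strand setting. Totals ran from 27933505 to 56082520 counts per library. No source used here says whether libraries of a group share litters or days. The p-values treat each mouse as independent, which could not be checked.

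The quasi-likelihood test of edgeR 4.0.16 in R 4.3.3, with robust dispersions and TMM (trimmed mean of M-values) scaling, was run on the 19678 genes kept by filterByExpr. CPM are counts per TMM-scaled library total, times 10 to the sixth power. One fit over all 24 libraries gave 7 comparisons, including the averages over both treatments or genotypes. Benjamini-Hochberg adjustment ran over all tested genes, and an adjusted p below 0.05 was called. Single members were compared by two-sided exact permutation of 924 assignments on log2(CPM + 1) and on the ratio to microglia markers. Alternatives used limma 3.58.1, DESeq2 1.42.0, other scalings, filters and covariates, and each library left out. The fits without WT_induced replicate 6 across the gene lists and the ratio to 5 markers were chosen after seeing the data. The fit was tested on simulated data. Samples were grouped by genotype and treatment labels.

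The members and gene lists were chosen with earlier results of these data known. The text names the 10 members, the pathway genes called, the 3 nearest tested genes on each side of Trem2, and the 8 genes most like Trem2 and Tyrobp.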

Additional observations from a re-analysis of the deposited data

Results flagged for a closer look

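Of 40 member and group combinations, each with 6 libraries, 8 held a library whose gap to the nearest other one exceeded 0.625 of the group's range, and chance flags about 1 in 20. WT_induced replicate 6 was the highest library in 6 of them, at 9.32 CPM for Trem2, 12.1 for Tyrobp, 0.433 for Hcst, 6.11 for Plcg2, 18.5 for Inpp5d and 5.81 for Vav1. R47H_induced replicate 6 was lowest of its group for Plcg2 at 2.74 CPM, and R47H_induced replicate 2 was lowest for Adam17 at 14.8 CPM.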

How the results depend on the processing

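No paired analysis was possible because the replicate numbers follow accession order and pair no mice. Depth limits Hcst most, and 6 mice a group limit differences of the size seen here.

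Trem2 in R47H_control against WT_control passed, as the 1 member called, when only the libraries compared were fitted (0.304) and with limma-voom sample weights (0.288); 1 member was also called at an adjusted p under 0.1. Averaged over both treatments it passed, again as 1 member, with microglia markers as a covariate (0.171) and with limma-voom sample weights (0.186). With single libraries left out, 0 to 1 members were called in either comparison, and the Trem2 difference ranged from 0.256 to 0.351 in the control lines, passing without WT_induced replicate 6 (0.301) and without R47H_control replicate 2 (0.351), and from 0.127 to 0.215 for the average, passing without WT_induced replicate 6. For WT induction it ranged from -0.077 without WT_induced replicate 6 to 0.098, was -0.036 with microglia markers as a covariate, -0.023 with sample weights and, in the permutation difference, -0.012 on library totals and -0.069 without that library. In the induced lines, where it was 0.002, Trem2 was -0.001 with RLE size factors and with DESeq2, rounded to -0.0 with a minimum CPM of 1, and ranged from -0.048 to 0.128 with single libraries left out. The cause was not tested.

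Other signs turned in members that passed in no fit, many of them from differences near 0. With microglia markers as a covariate, R47H induction gave 0.166 for Tyrobp, 0.15 for Plcg2, 0.076 for Inpp5d, 0.01 for Lyn and 0.138 for Vav1. The difference of the inductions gave 0.06 for Tyrobp, 0.045 for Plcg2, 0.055 for Inpp5d, 0.001 for Adam17 and 0.069 for Vav1. The induced lines gave 0.068 for Tyrobp, 0.09 for Syk, 0.079 for Plcg2 and 0.007 for Vav1, the control lines -0.063 for Vav1 and the average line difference 0.038 for Tyrobp. With the share of rRNA-like genes as covariate, R47H induction gave 0.099 for Tyrobp, 0.142 for Plcg2, 0.055 for Inpp5d and 0.1 for Vav1, and the difference of the inductions 0.037 for Plcg2, 0.025 for Inpp5d, 0.015 for Adam17 and 0.003 for Vav1. The control lines then gave -0.031 for Tyrobp, -0.069 for Plcg2 and -0.126 for Vav1, and the average line difference -0.05 for Plcg2. Scaling by library totals gave, in R47H induction, 0.028 for Tyrobp, 0.037 for Plcg2, 0.02 for Inpp5d, 0.029 for Adam10 and 0.025 for Vav1. It gave 0.028 for Adam10 and 0.04 for Adam17 in the difference of the inductions and -0.008 for Vav1 in the control lines. Permutation differences on library totals were 0.022 for Tyrobp, 0.032 for Plcg2, 0.015 for Inpp5d, 0.031 for Adam10 and 0.019 for Vav1 in R47H induction, 0.012 for Syk in the induced lines and -0.002 for Vav1 in the control lines. With limma-voom sample weights the induced lines gave 0.015 for Tyrobp and 0.052 for Syk, the average induction -0.001 for Inpp5d and the average line difference 0.078 for Tyrobp (0.021 without weights) and 0.02 for Vav1. The ratio to 5 microglia markers gave -0.022 for Tyrobp and -0.005 for Adam17 in the induced lines and 0.012 for Adam10 in WT induction. Without the 2 libraries farthest from the median of Trem2, its r was -0.003 with Plcg2, -0.26 with Adam10, -0.024 with Adam17 and -0.104 with Vav1.

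With single libraries left out, the extremes were as follows. These signs turned without WT_induced replicate 6 alone: WT induction of Inpp5d (-0.029 to 0.141), the induced lines for Tyrobp (-0.249 to 0.103), Plcg2 (-0.181 to 0.101) and Vav1 (-0.274 to 0.018), the average induction of Tyrobp (-0.005 to 0.168), Syk (-0.033 to 0.076), Inpp5d (-0.03 to 0.055) and Vav1 (-0.008 to 0.138), and the average line difference of Vav1 (-0.11 to 0.036). Those that turned without it and without another library were Syk in the induced lines (-0.125 to 0.086), Adam10 in the average induction (-0.002 to 0.018), and Tyrobp (-0.054 to 0.12) and Lyn (-0.047 to 0.035) in the average line difference. Those that turned without other libraries were R47H induction of Tyrobp (-0.059 to 0.003) and Plcg2 (-0.056 to 0.042), Adam17 in the control lines (-0.045 to 0.006), Adam10 in the induced lines (-0.002 to 0.038) and Plcg2 in the average line difference (-0.019 to 0.123). Without WT_induced replicate 6, permutation differences in the induced lines were 0.087 for Tyrobp, 0.085 for Syk, 0.076 for Plcg2 and 0.017 for Vav1, and -0.027 for Inpp5d in WT induction. The ratio to microglia markers was then 0.065 for Adam10 in WT induction, and -0.043 for Adam17 and 0.022 for Vav1 in the induced lines, and r with Trem2 was -0.077 for Adam10 and -0.059 for Vav1.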
